A study of Mus musculus with 15 samples.

Results

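Homeostatic microglia genes are a set of genes by which resting microglia, the resident macrophages of the brain, are told apart from other macrophages. Not every gene of the set is limited to microglia. The 9 genes P2ry12, P2ry13, Tmem119, Sall1, Cx3cr1, Siglech, Gpr34, Olfml3 and Slc2a5 were taken by symbol, each from the Ensembl row that GENCODE M21 gives it, out of 46679 genes in the deposited tables. All 9 had a single row, and all 9 passed the filter on low counts that left 17481 genes for testing. Bulk RNA was sequenced from 15 tissue samples of C57BL/6 mice aged 6 to 8 weeks at implantation, with 3 mice in each of 5 groups. Naive brain from mice without a tumor was the control, and the other 4 groups were brain tumors grown from the CT2A, GL261, 005 or Mut3 line and taken at the humane end point after perfusion. CT2A (p53 wild type) and GL261 (p53 mutant) came from chemical induction in C57BL/6 mice, 005 carries activated H-Ras and Akt on a p53+/- background, and Mut3 lacks Nf1 and p53, the genotypes being given here only in part. The implanted cells were also engineered to carry GFP and firefly luciferase. CT2A, GL261 and 005 were implanted at 100000 cells and Mut3 at 500000 cells. Each tumor type was 1 line, so the genotype, the cell number and the line cannot be told apart, and no sham injection is mentioned for naive brain.

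In the resting brain, microglia survey the tissue with fine processes and sense nucleotides, lipids and chemokines released by neurons and damaged cells. Their identity is kept up by local signals such as TGF-beta and by transcription factors such as Sall1. Microglia that become activated, and monocyte-derived macrophages that enter a tumor, are known to show lower levels of many of these genes than resting microglia. In bulk RNA, fewer microglia and less RNA per microglial cell cannot be told apart.

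Libraries held between 3105119 and 13130158 estimated reads in genes, the naive libraries being the shallowest (3105119 to 5161132), and the 9 genes together received 383 to 2436 reads in each. Some libraries stood apart before any result was read. 005 replicate 3 had a summed neuron marker level of 357 TPM (transcript share adjusted for gene length) where the other 005 libraries had 32.8 and 10.5, and 17.8% of its reads were mitochondrial against 6.42% and 4.60%. CT2A replicate 1 had a neuron level of 64.8 TPM against 9.30 and 10.9 and 7.59% mitochondrial reads against 4.29% and 3.48%. GL261 replicate 2 had the highest neuron level of its group (118 TPM, against 36.6 and 70.5). Naive replicate 2 was the shallowest of all and had 875 TPM of oligodendrocyte genes, against 216 and 173 in the other naive libraries. Calls of the 9 genes that were lost or gained when 1 of these libraries was left out are named beside the result.

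The 9 genes did not move as a block. Compared with naive brain, 7 of the 9 were lower in Mut3 tumors and 4 of the 9 in CT2A tumors, whereas none was called lower in GL261 or 005 tumors, and Olfml3 was higher in GL261 tumors. A gene was called when edgeR's quasi-likelihood test gave a Benjamini-Hochberg adjusted p under 0.05 over all 17481 genes and the change was at least 2-fold. By that rule 19.8% of all tested genes were lower in Mut3, 20.2% in CT2A, 7.77% in GL261 and 1.05% in 005. The members' 7 of 9 in Mut3 stood well above its background share and the 4 of 9 in CT2A above it by less. Without CT2A replicate 2, 1 of the 9 was called in CT2A, where 10.1% of all genes were lower. Without 005 replicate 3, P2ry12, Siglech and Gpr34 were called lower in 005, where 18.1% of all genes were lower. All 4 comparisons share the same 3 naive libraries.

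The median log2 fold change of the 9 genes was -2.28 in Mut3, -1.21 in CT2A, -0.34 in GL261 and -0.29 in 005. Over all tested genes the medians were 0.11, -0.04, -0.08 and 0.01. In a test for any difference among the 5 groups, all 9 genes passed an adjusted p of 0.05 (from 0.000747 for Cx3cr1 to 0.0266 for Slc2a5), as did 52.1% of all tested genes.

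**Figure D1:**
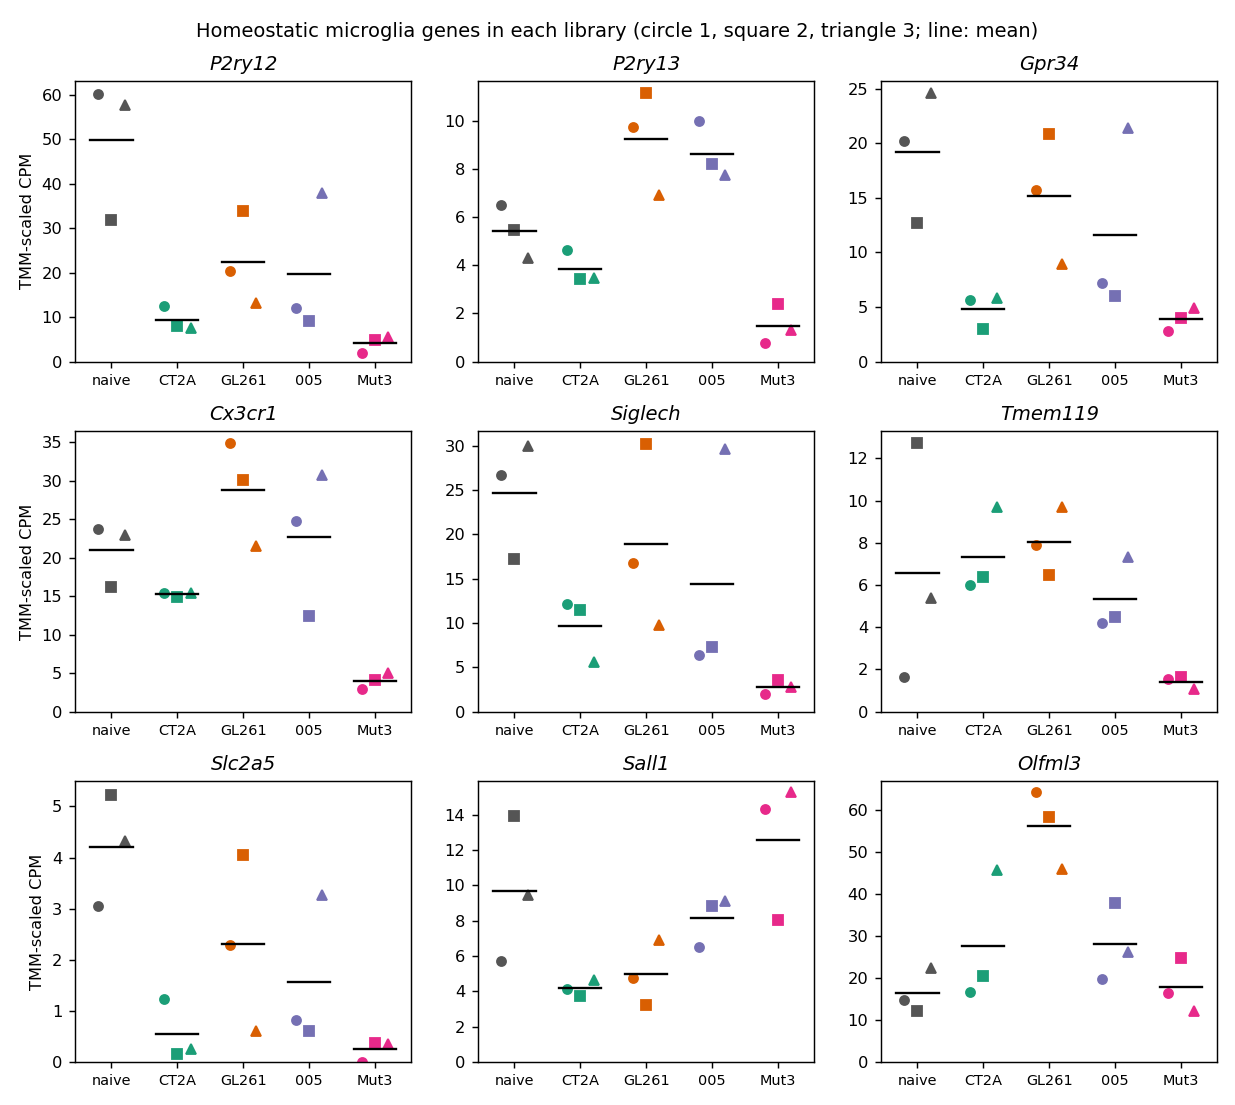
Level of each of the 9 genes in the 15 libraries, as CPM scaled by TMM factors, with 1 panel per gene, 3 points per group and the group mean as a line. P2ry12 is below every naive library in all CT2A and Mut3 tumors, P2ry13 and Cx3cr1 are lowest in Mut3, and Olfml3 is highest in GL261.

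The purinergic receptors P2ry12 and P2ry13 are neighbours on mouse chromosome 3 (mm10, chr3:59216272-59262871 and chr3:59207892-59210882, both on the minus strand), and both bind ADP. P2ry12 steers microglial processes towards ADP released by injured cells. Between samples, levels are given as CPM (counts relative to library size) after TMM scaling (trimmed mean of M values), which adjusts for library size and composition. P2ry12 was at 60.2, 31.9 and 57.6 CPM in naive brain, 12.5, 8.07 and 7.49 in CT2A, 20.3, 33.8 and 13.2 in GL261, 12.1, 9.05 and 38.0 in 005, and 1.90, 4.78 and 5.54 in Mut3. All CT2A and Mut3 tumors were below all naive brains, all Mut3 tumors were below all CT2A tumors, and in GL261 and 005 only GL261 replicate 2 and 005 replicate 3 reached into the naive range.

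P2ry12 fell 12.2-fold in Mut3 (log2 fold change -3.61 ± 0.60, SE, adjusted p = 0.000716) and 5.33-fold in CT2A (-2.41 ± 0.57, adjusted p = 0.00533) in the edgeR fit. Neither 005 (-1.33 ± 0.55, adjusted p = 0.116) nor GL261 (-1.15 ± 0.55, adjusted p = 0.128) passed. On log2(TPM + 1), limma called P2ry12 lower in both, at -1.33 in 005 (adjusted p = 0.0186) and -1.34 in GL261 (adjusted p = 0.00819), where it called 16.8% and 26.6% of all genes lower. Without 005 replicate 3 the 005 estimate was -2.31 with an adjusted p of 0.00328. Without that library and naive replicate 2, an alternative chosen after seeing the data, the GL261 estimate was -1.33 with an adjusted p of 0.0438. The exons of P2ry12 overlap exons of Med12l, which lies on the opposite strand, and the sources used here do not say whether the counting used strand.

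P2ry13 followed another order. Its level was 6.53, 5.48 and 4.33 CPM in naive brain, 4.64, 3.42 and 3.49 in CT2A, 9.74, 11.2 and 6.91 in GL261, 9.99, 8.21 and 7.76 in 005, and 0.783, 2.39 and 1.32 in Mut3. All GL261 and 005 libraries were above all naive libraries on this scale, though not by TPM, and all Mut3 libraries were below them on both. The fall in Mut3 was 3.64-fold (log2 -1.86 ± 0.43, adjusted p = 0.00403). The differences in GL261 (0.76 ± 0.41, adjusted p = 0.176), 005 (0.66 ± 0.41, adjusted p = 0.267) and CT2A (-0.50 ± 0.41, adjusted p = 0.344) did not pass. P2ry13 lies within the span of Med12l too, on the opposite strand, but shares no exon with it.

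Gpr34, a receptor for lysophosphatidylserine on chromosome X (chrX:13632089-13640858), went with P2ry12 rather than with P2ry13. It was at 20.2, 12.7 and 24.6 CPM in naive brain, 5.62, 2.95 and 5.81 in CT2A, 15.8, 20.8 and 8.98 in GL261, 7.21, 6.04 and 21.4 in 005, and 2.80, 4.03 and 4.93 in Mut3. CT2A and Mut3 were wholly below naive brain and overlapped each other, and 005 replicate 3 was again at the naive level while its group mates were below it. By TPM GL261 (0.637 to 1.32) was wholly below naive brain (1.79 to 2.14) as well, and 005 replicate 3 (2.10) was not. Gpr34 fell 4.87-fold in Mut3 (-2.28 ± 0.53, adjusted p = 0.00392) and 3.98-fold in CT2A (-1.99 ± 0.52, adjusted p = 0.00884), the CT2A call being lost without CT2A replicate 2 (-1.64, adjusted p = 0.0524). In 005 the estimate of -0.72 (adjusted p = 0.324) became -1.60 (adjusted p = 0.0151) without replicate 3. Gpr34 lies wholly within the span of Cask, on the opposite strand, and shares no exon with it.

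Cx3cr1, the receptor for the neuronal chemokine fractalkine (Cx3cl1), had edgeR's lowest adjusted p of any member between Mut3 and every other tumor type. The paper found CX3CR1 protein high also on some immune cells that had entered the GL261 tumor. By estimated fold over Mut3, Cx3cr1 came behind Tmem119 in CT2A, behind P2ry13 and Slc2a5 in 005 and behind Slc2a5 in GL261. It was at 23.7, 16.2 and 23.0 CPM in naive brain, 15.4, 14.9 and 15.4 in CT2A, 34.8, 30.1 and 21.5 in GL261, 24.7, 12.4 and 30.7 in 005, and 2.91, 4.15 and 5.01 in Mut3. The highest Mut3 tumor was below the lowest library of every other group. By TPM GL261 (1.58 to 1.97) was also wholly below naive brain (2.08 to 2.46), while 005 (0.813 to 3.14) overlapped it. The fall in Mut3 was 5.18-fold (-2.37 ± 0.37, adjusted p = 0.000538). The CT2A libraries lay just under the naive range and their change of -0.46 ± 0.35 (adjusted p = 0.304) did not pass, nor did those in 005 (0.11, adjusted p = 0.846) and GL261 (0.46, adjusted p = 0.340), which both changed sign on the TPM scale. On log2(TPM + 0.1) limma called Cx3cr1 lower in CT2A (-1.32, adjusted p = 0.0138). The annotated span of Cx3cr1 (chr9:119901616-120069879) overlaps several other genes, and the antisense gene Gm33858 shares exon sequence with it.

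**Figure D2:**
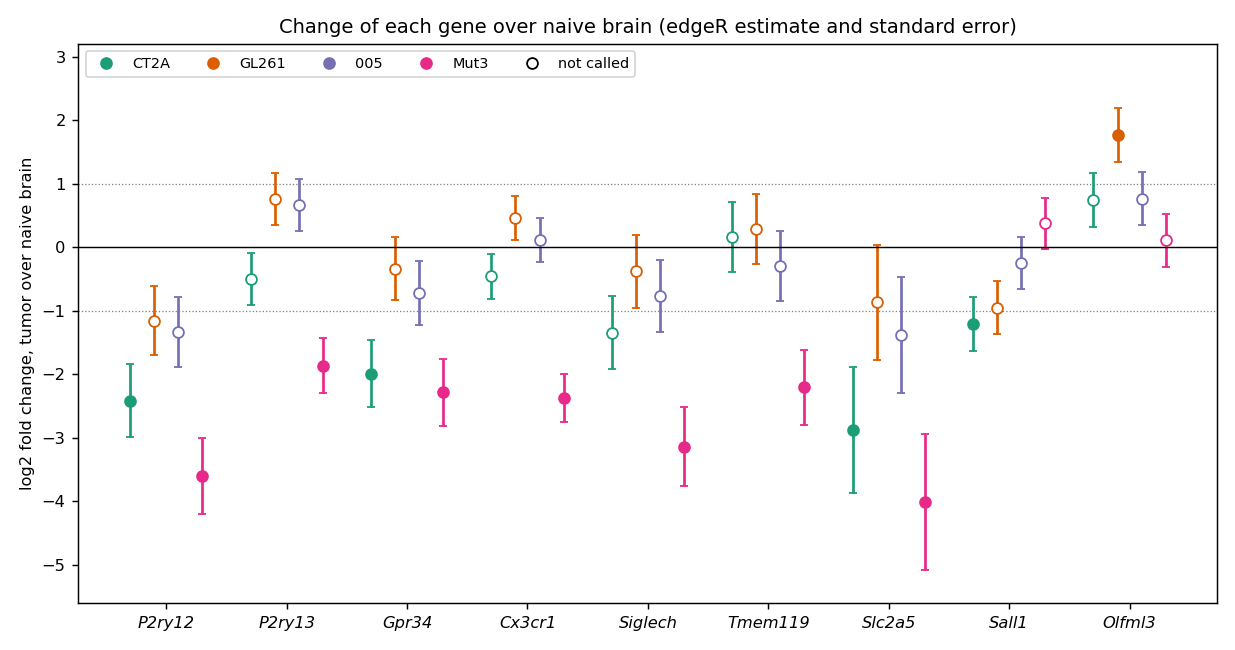
Log2 fold change of each gene in each tumor type over naive brain, as the edgeR estimate with its standard error. Filled points passed the adjusted p and the 2-fold minimum (dotted lines), open points did not, and the filled points are 7 in Mut3, 4 in CT2A and 1, Olfml3, in GL261.

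Siglech, a sialic acid-binding lectin that signals through the adaptor Tyrobp, had the highest TPM of the 9 genes in naive brain (7.08 ± 0.36, SD, n = 3). Its level was 26.7, 17.2 and 30.0 CPM in naive brain, 12.1, 11.5 and 5.55 in CT2A, 16.8, 30.2 and 9.83 in GL261, 6.39, 7.24 and 29.6 in 005, and 2.01, 3.52 and 2.81 in Mut3. All CT2A and Mut3 libraries were below all naive libraries, and GL261 replicate 2 and 005 replicate 3 stood at the naive level. By TPM GL261 (1.91 to 5.29) was wholly below naive brain (6.67 to 7.36), and 005 replicate 3 (8.05) was not. Siglech fell 8.82-fold in Mut3 (-3.14 ± 0.63, adjusted p = 0.00170). In CT2A the change of -1.34 ± 0.58 missed the threshold (adjusted p = 0.0758), but it was called in 4 of 15 alternatives, among them limma on log2(TPM + 1) at -1.74 (adjusted p = 0.00869) and edgeR with only the 2 groups compared at -1.25 (adjusted p = 0.0291). In 005 it was -0.77 (adjusted p = 0.359), and -1.92 (adjusted p = 0.00834) without replicate 3.

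Siglech also marks plasmacytoid dendritic cells. Of 7 genes listed for that cell type, 6 were tested. Bst2, which interferon also induces, was called higher in every tumor type, and Ly6d in GL261 and 005, with group means of 1.68 TPM in naive brain, 4.66 in GL261 and 12.1 in 005, the GL261 call being lost without GL261 replicate 2 or naive replicate 1 or 3. Cox6a2 and Pacsin1, the latter also used by neurons, were called lower in CT2A and Mut3, Pacsin1 in CT2A not without CT2A replicate 2 or 3. The chemokine receptor Ccr9 had group means of 0.0512 to 0.141 TPM, and Klk1 went from 0 in naive brain to 0.784 TPM in 005. The list summed to 48.7 to 59.4 TPM in naive brain, 68.4 to 80.6 in CT2A, 112 to 168 in GL261, 23.3 to 81.4 in 005 and 24.4 to 30.7 in Mut3, and most of the sum in CT2A and GL261 was Bst2 (means of 61.1 and 129 TPM). The part of these cells in the Siglech level was not tested.

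Tmem119, a membrane protein by which microglia are told from blood-derived macrophages, was the least settled of the 9 in the control group itself. Naive brain gave 1.63, 12.7 and 5.41 CPM, from 8.08, 50.7 and 19.6 estimated reads. The tumors gave 5.98, 6.37 and 9.69 in CT2A, 7.88, 6.47 and 9.70 in GL261, 4.22, 4.47 and 7.33 in 005, and 1.57, 1.64 and 1.06 in Mut3. The naive libraries covered the whole range of CT2A, GL261 and 005, and by CPM the lowest naive library was level with Mut3. By TPM all Mut3 libraries (0.190 to 0.307) were below all naive libraries (0.507 to 5.48). The call in Mut3 (4.60-fold lower, -2.20 ± 0.59, adjusted p = 0.00919) rested on naive replicate 2 and was lost without it (-1.12, adjusted p = 0.112). Against the other tumor types, Mut3 was lower than all 9 of their libraries.

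Slc2a5, the fructose transporter GLUT5, was the scarcest gene. It had 15.4, 21.4 and 16.2 estimated reads in the naive libraries, 9.55, 0.937 and 1.91 in CT2A, 10.9, 25.5 and 5.14 in GL261, 7.50, 4.93 and 45.6 in 005, and 0, 2.92 and 3.86 in Mut3. As CPM this was 3.06 to 5.23 in naive brain, 0.155 to 1.22 in CT2A, 0.607 to 4.04 in GL261, 0.604 to 3.28 in 005 and 0 to 0.377 in Mut3. CT2A and Mut3 were wholly below naive brain, while GL261 replicate 2 and 005 replicate 3 were again the highest of their groups. By TPM GL261 (0.0664 to 0.392) was wholly below naive brain (0.471 to 1.13) as well, and 005 replicate 3 (0.481) reached it.

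Slc2a5 fell in Mut3 (-4.01 ± 1.06, adjusted p = 0.00861) and in CT2A (-2.88 ± 1.00, adjusted p = 0.0319) in edgeR's test. With 3 reads or fewer in 2 of the CT2A libraries and 2 of the Mut3 libraries, the sizes of these falls are loosely fixed. The CT2A call was lost without naive replicate 2 or 3 or without CT2A replicate 2 or 3 (adjusted p from 0.0600 to 0.124). It was also lost with replicate number added to the fit as a block.

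Sall1, the zinc finger factor that holds microglial identity in the adult brain and is also used by other cell types in development, followed an order of its own. It was at 5.71, 13.9 and 9.46 CPM in naive brain, 4.15, 3.73 and 4.65 in CT2A, 4.77, 3.23 and 6.91 in GL261, 6.49, 8.81 and 9.11 in 005, and 14.3, 8.05 and 15.3 in Mut3. CT2A was wholly below naive brain, and Mut3, the lowest group for most of the other members, had the highest mean for Sall1 on this scale and overlapped naive brain, while by TPM naive brain had the higher mean (0.794 against 0.540). The fall in CT2A was 2.31-fold (-1.21 ± 0.42, adjusted p = 0.0318), and the change in Mut3 was 0.38 ± 0.41 (adjusted p = 0.482). Leaving out naive replicate 2 or 3 or any of the CT2A libraries took the CT2A call away, with estimates from -1.28 to -0.65 and adjusted p from 0.0589 to 0.259. The call was also lost with no filter on low counts and with only the 2 groups compared, and held in 5 of 13 alternatives.

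Olfml3, a secreted olfactomedin-like protein, was the member that rose. Which cells of the tissue carried Olfml3 was not tested. Its level was 14.7, 12.2 and 22.4 CPM in naive brain, 16.6, 20.3 and 45.6 in CT2A, 64.2, 58.3 and 45.9 in GL261, 19.8, 37.9 and 26.2 in 005, and 16.4, 24.7 and 12.2 in Mut3. Every GL261 library was above every other library of the series, by CPM and by TPM, and the other groups overlapped naive brain. The rise in GL261 was 3.41-fold (1.77 ± 0.43, adjusted p = 0.0102), where 14.6% of all tested genes were called higher. On the log2(TPM + 1) scale, on which the median of all genes was -0.53 in GL261 over naive brain, the Olfml3 difference was 0.73 (limma adjusted p = 0.0411) and under 2-fold, and on log2(TPM + 0.1) it was 0.96 (adjusted p = 0.0606). Olfml3 differences of 0.74 in CT2A, 0.77 in 005 and 0.11 in Mut3 did not pass, and those in CT2A and Mut3 changed sign on the TPM scale.

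**Figure D3:**
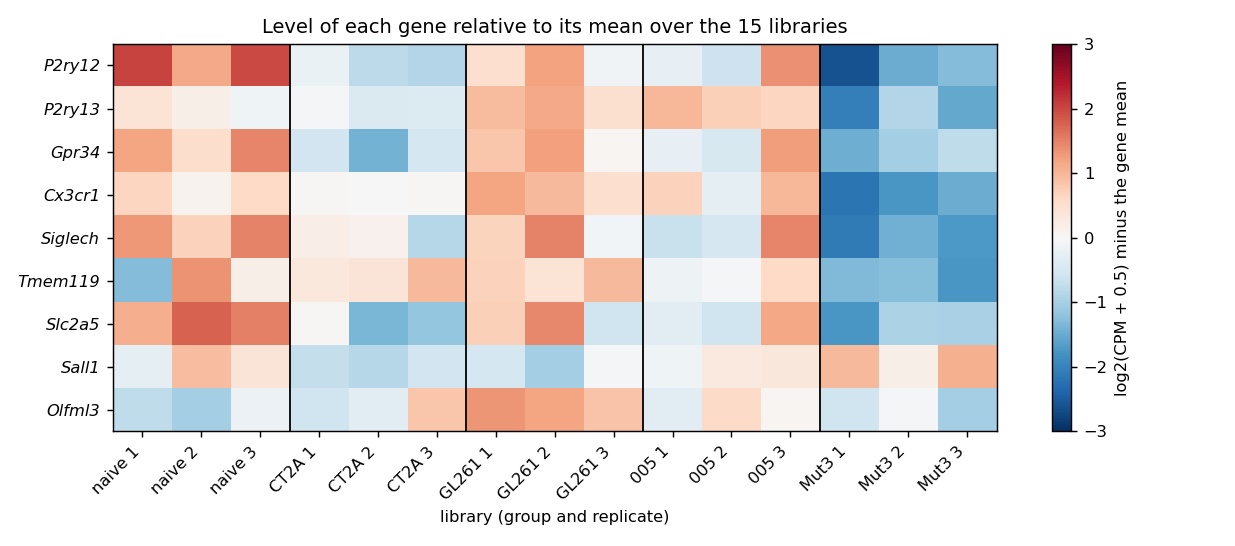
Level of each gene in each of the 15 libraries as log2(CPM + 0.5) minus the mean of the gene over all libraries, red above and blue below it. The Mut3 columns are blue for 7 genes, blue or near the mean for Olfml3 and red or near the mean for Sall1, and GL261 replicate 2 and 005 replicate 3 are the reddest of their groups for P2ry12, Gpr34, Siglech and Slc2a5.

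Set against each other, the tumor types fell apart mainly at Mut3. Between GL261 and Mut3, 8 of the 9 genes were called, where 17.2% of all tested genes were, and 7 of the 8 were higher in GL261 while Sall1 was lower (-1.33, adjusted p = 0.0385). The largest of the called differences was in Cx3cr1 (7.10-fold, 2.83 ± 0.38, adjusted p = 0.000481), followed by Siglech (6.77-fold, adjusted p = 0.00901) and P2ry13 (6.17-fold, adjusted p = 0.00171). Slc2a5, the gene left out, had an estimate of 8.83-fold with an adjusted p of 0.0507, and 4 of 11 alternatives called it. Without GL261 replicate 2 the count was 6, Gpr34 and Sall1 being lost, where 9.17% of all genes were called. The Sall1 call was also lost without GL261 replicate 1 or Mut3 replicate 1 or 3 and held in 6 of 13 alternatives, and the Gpr34 call was also lost without Mut3 replicate 1 or 2. Between 005 and Mut3, 6 of the 9 were called, all higher in 005, against 19.8% of all genes. P2ry13 (5.77-fold, adjusted p = 0.00212) and Cx3cr1 (5.60-fold, adjusted p = 0.000984) led that list. Without 005 replicate 3, or without Mut3 replicate 1, 2 of the 9 were called, where 16.1% and 9.62% of all genes were. The calls of P2ry12, Siglech, Gpr34 and Tmem119 were the ones lost without 005 replicate 3.

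Between CT2A and Mut3, 4 of the 9 genes were called, against 12.8% of all genes. Tmem119 (5.16-fold, adjusted p = 0.0155), Cx3cr1 (3.76-fold, adjusted p = 0.00367) and P2ry13 (2.57-fold, adjusted p = 0.0477) were higher in CT2A, and Sall1 was 3.00-fold lower there (adjusted p = 0.0211). P2ry12, the gene with the greatest loss over naive brain in CT2A after Slc2a5, did not pass between these tumor types (1.19 ± 0.56, adjusted p = 0.178), nor did Gpr34 (0.29 ± 0.52, adjusted p = 0.754). Leaving out 1 CT2A or Mut3 library, other than Mut3 replicate 2, brought this count to 1 or 2, where 7.35% to 9.51% of all genes were called. Each of these omissions lost P2ry13 and Sall1, and those of CT2A replicate 3 and Mut3 replicate 3 lost Tmem119 too. P2ry13 was called in 3 of 12 alternatives, Sall1 in 8 of 13, Tmem119 in 10 of 14 and Cx3cr1 in 14 of 15.

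Between CT2A and GL261 edgeR called 0 of the 9 genes, with 5 at an unadjusted p under 0.05, where it called 7.77% of all genes, and DESeq2 called 2, where it called 11.1%. Between CT2A and 005 edgeR called 0, with 3 at an unadjusted p under 0.05, against 4.11% of all genes, and DESeq2 called 1, against 10.1%. Between GL261 and 005 both tools called 0, with 1 at an unadjusted p under 0.05 in edgeR, against 2.62% of all genes by edgeR and 5.02% by DESeq2. Of these, the smallest adjusted p values were those of Gpr34 (0.0645) and P2ry13 (0.0738), both lower in CT2A than in GL261. Likewise both tools called 0 members lower than naive brain in GL261 and in 005. Of all genes, edgeR called 7.77% and 1.05% lower there, and DESeq2 11.6% and 4.63%. At an unadjusted p under 0.05 edgeR had 1 member lower in each, Sall1 in GL261 and P2ry12 in 005.

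005 replicate 3 bore on results beyond these genes, in 005 and in comparisons of other groups. With it, 184 of the 17481 tested genes were lower in 005 than in naive brain, and without it 3318 of 18300 were. Of the members, P2ry12, Siglech and Gpr34 were then called lower, Cx3cr1 stood at -0.24, and none was called higher. The spread was pooled over all groups, and comparisons that hold no 005 library moved too. Without 005 replicate 3, the share of all genes called in either direction rose from 22.4% to 30.2% between GL261 and naive brain. It rose from 7.77% to 12.1% between CT2A and GL261, and from 12.8% to 17.6% between CT2A and Mut3. Member calls in these pairs were not followed with this library alone left out.

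The members' levels were next read against the amount of macrophage and microglia RNA in each library. A list of 14 genes carried by microglia and macrophages alike (such as Aif1, Itgam, Ptprc and the C1q chains) was called higher for 12 genes in CT2A, 13 in GL261 and 13 in 005, where 19.0%, 14.6% and 11.6% of all tested genes were higher. Without naive replicate 1 or CT2A replicate 3 the CT2A count was 7. In Mut3 none of the 14 was called higher (17.9% of all genes) by edgeR, 2 had an unadjusted p under 0.05, and Itgam was 2.95-fold lower (adjusted p = 0.00384). Their summed level was 336 to 373 TPM in naive brain, 598 to 644 in CT2A, 1200 to 1556 in GL261, 886 to 2784 in 005 and 113 to 330 in Mut3.

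For each 1000 TPM of these pan-myeloid genes, the 9 members summed to 60.0, 68.8 and 62.7 TPM in naive brain. The tumors gave 11.6, 9.08 and 10.7 in CT2A, 7.68, 14.6 and 9.72 in GL261, 7.45, 2.77 and 18.0 in 005, and 25.9, 14.9 and 9.71 in Mut3. All 12 tumors were below all 3 naive brains, and the tumor types overlapped one another. Over Ptprc, Spi1 and Itgam alone, the log2 ratio of Mut3 replicate 2 (2.912) was level with that of naive replicate 1 (2.906), and the other 11 tumors were below all naive brains. The difference of the mean log2 ratio from naive brain was smallest in Mut3 (-2.04), followed by CT2A (-2.62), GL261 (-2.63) and 005 (-3.15). In Mut3 the members that had not fallen, Olfml3 (mean 6.63) and Sall1 (2.90), made up more of the mean sum than the other 7 together. In Mut3 replicate 3 they did not (2.66 and 1.97 of 9.71). The means of Siglech (2.18) and Cx3cr1 (1.19) were lowest in Mut3, with ranges that overlapped those of the other tumor types. Gene by gene, P2ry12, P2ry13, Gpr34, Cx3cr1, Siglech and Slc2a5 were below every naive library in all 12 tumors, 6 of the 9 members against 18.7% of all tested genes, and Tmem119, Sall1 and Olfml3 overlapped.

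**Figure D4:**
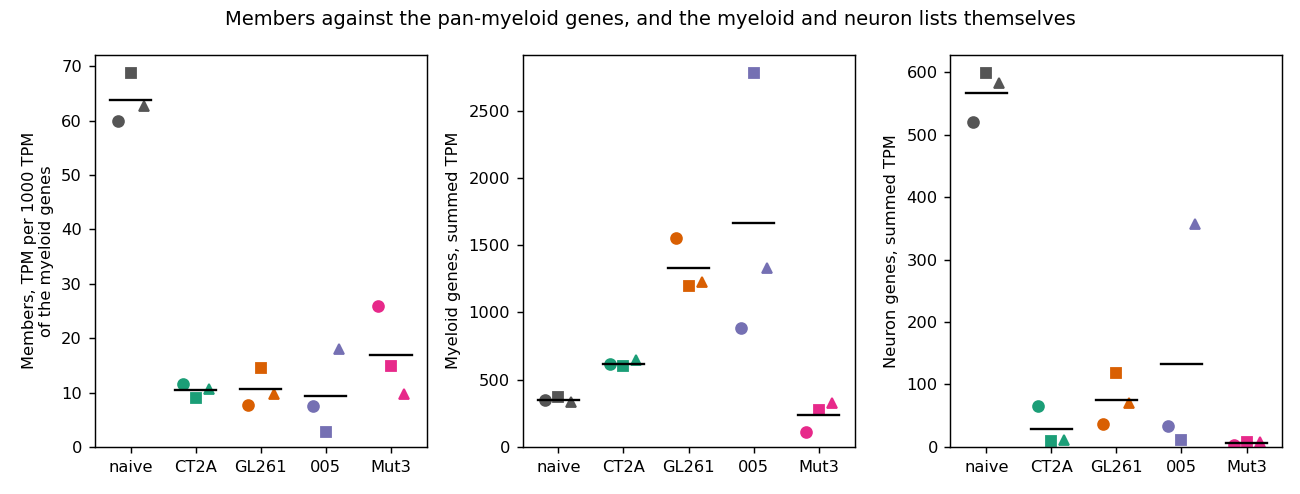
Summed TPM of the 9 members per 1000 TPM of the pan-myeloid genes (left), summed TPM of the pan-myeloid genes (middle) and of 6 neuron genes (right) in each library, with the group mean as a line. The naive libraries lie at 60.0 to 68.8 on the left and the 12 tumors between 2.77 and 25.9, while the pan-myeloid sum is highest in GL261 and 005 and the neuron sum is highest in naive brain and, among tumors, in 005 replicate 3.

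Ratios of the other members to P2ry12, itself called lower in CT2A and Mut3, were read next. Cx3cr1 had 0.478 to 0.616 times the TPM of P2ry12 in naive brain and 0.981 to 2.50 times in the tumors. P2ry13 had 0.103 to 0.244 times in naive brain and 0.287 to 1.26 times in the tumors, and Olfml3 went from 0.341 to 0.544 times up to 0.963 to 11.9 times. These 3 of the other 8 members were higher relative to P2ry12 in all 12 tumors than in all 3 naive brains. So were 22.1% of all tested genes, and the members' count was not far above that share. Gpr34, Siglech, Slc2a5, Tmem119 and Sall1 overlapped. In naive brain the order by TPM began with Siglech and P2ry12 (4.42 ± 0.66), and in 005 it began with Siglech too (3.44 ± 3.99), though there only replicate 3 had more Siglech than Olfml3, whereas in CT2A and GL261 it began with Olfml3 (1.74 ± 0.88 and 4.07 ± 0.30), as it did in Mut3. Olfml3 exceeded Siglech in all Mut3 libraries, in GL261 replicates 1 and 3 and, of CT2A, in replicate 3 alone.

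Across the 15 libraries, which share tumor type and tissue composition, the members fell into loose sets. The log2 CPM of P2ry12 had a Pearson's r of 0.95 with Siglech, 0.94 with Gpr34 and 0.94 with Slc2a5, and P2ry13 had an r of 0.90 with Cx3cr1. Sall1 had a negative r with each of the other 8, from -0.09 with Slc2a5 to -0.55 with Cx3cr1. Outside the 9, the 10 tested genes most like the mean profile of the members included Car2, Syt4, Aqp4, Gjb6, Kcnj16, Scg3, Msl3l2, Sdr39u1 and Scn1a, with r from 0.97 to 0.94. Aqp4 is the water channel of astrocytes, and Syt4, Scg3 and Scn1a are used by neurons.

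The levels of other cell types' genes in the same libraries were as follows. All 6 neuron genes (Rbfox3, Snap25, Syt1, Slc17a7, Gad1 and Gad2) were called lower in CT2A and in Mut3, and none in GL261 or 005 by edgeR, with 5 and 2 at an unadjusted p under 0.05. Without CT2A replicate 2 the CT2A count was 1, where 10.1% of all genes were lower. Without 005 replicate 3 all 6 were called lower in 005, where 18.1% of all genes were. Their summed level was 521 to 599 TPM in naive brain, 9.30 to 64.8 in CT2A, 36.6 to 118 in GL261, 10.5 to 357 in 005 and 2.80 to 8.21 in Mut3. Oligodendrocyte genes were called lower for 3 of 5 in CT2A and 3 of 5 in Mut3, falling to 1 in Mut3 without naive replicate 2 or Mut3 replicate 1. Astrocyte genes were called lower for 2 of 5 in CT2A and 3 of 5 in Mut3, and Gfap, which reactive astrocytes raise, was called higher in GL261 and Mut3. The CT2A calls of both lists came to 0 without naive replicate 2 or without CT2A replicate 2 or 3. All tested genes were called lower for 20.2% in CT2A and 19.8% in Mut3. Monocyte-derived macrophage genes summed to 7.72 to 8.27 TPM in naive brain and to 29.2 to 335 TPM over the tumors, and of the 10 genes 2 were called higher in Mut3, 6 in CT2A, 7 in GL261 and 8 in 005, where 17.9%, 19.0%, 14.6% and 11.6% of all tested genes were. The part of retained brain tissue or of incoming macrophages in the members' levels was not tested.

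Other genes that resting microglia carry gave mixed counts. Of 25 such genes, 24 were tested, and 4 were lower and 5 higher in CT2A, 1 lower and 7 higher in GL261, 0 lower and 5 higher in 005, and 6 lower and 3 higher in Mut3. The shares of all tested genes called lower and higher were 20.2% and 19.0% in CT2A, 7.77% and 14.6% in GL261, 1.05% and 11.6% in 005, and 19.8% and 17.9% in Mut3, so that the counts in CT2A were near the background share and those in Mut3 not far from it. Leaving out 1 library at a time, the lower count fell to 1 in CT2A (without naive replicate 2) and 0 in GL261 (without naive or GL261 replicate 1). In 005 the lower count rose from 0 to at most 4. The higher count fell to 2 in CT2A (without naive or CT2A replicate 3), 4 in GL261 (without naive replicate 1) and 1 in 005 (without naive replicate 3 or 005 replicate 2). The 6 lower in Mut3 were Csf1r, the receptor for Csf1 and Il34 (2.22-fold, adjusted p = 0.0467), Selplg (3.68-fold, adjusted p = 0.00306), Ltc4s (3.55-fold, adjusted p = 0.00719), Itgb5 (3.02-fold, adjusted p = 0.0358) and the transcription factors Mef2a and Mef2c. Without naive replicate 2 the calls of Csf1r (-0.52, adjusted p = 0.361) and Itgb5 (-0.29, adjusted p = 0.630) were lost, as they were without Mut3 replicate 1 or 3 and, for Csf1r, replicate 2. Mef2c, which neurons use as well, fell 17.8-fold in Mut3 and 9.37-fold in CT2A.

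Of 14 ligands, partners and niche signals of the members, 2 were lower and 4 higher in CT2A, 2 and 5 in GL261, 0 and 5 in 005, and 2 and 1 in Mut3. Against the same background shares, the counts lower in CT2A and in Mut3 were not above those of all genes. The 5 of 14 higher in GL261 and in 005 were above the shares of all genes (14.6% and 11.6%). The 4 higher in CT2A were above its share (19.0%) by less, and the 1 in Mut3 was below its share (17.9%). The higher count fell to 2 in CT2A without naive or CT2A replicate 3, and to 2 in GL261 without GL261 replicate 3. In Mut3 the higher count fell to 0 without naive replicate 3 or Mut3 replicate 2 or 3. The lower count fell to 1 in CT2A without naive replicate 2 or CT2A replicate 2 or 3, and in GL261 without GL261 replicate 1. With 1 library left out it rose to at most 3 in GL261 and 2 in 005. Cx3cl1, the ligand of Cx3cr1, fell 44.3-fold in Mut3 (-5.47 ± 0.72, adjusted p = 0.000214), 8.73-fold in CT2A and 7.61-fold in GL261. Il34, a Csf1r ligand made by neurons that microglia depend on, fell in Mut3 (-3.33 ± 0.43, adjusted p = 0.000210) and 3.44-fold in GL261 (adjusted p = 0.00780, lost without GL261 replicate 1). Tyrobp, the adaptor of Siglech, rose 2.87-fold in CT2A, 5.64-fold in GL261 and 5.21-fold in 005, and was at 0.13 ± 0.45 in Mut3 (adjusted p = 0.835). Receptor and ligand were both called lower in Mut3, while in CT2A and GL261 Cx3cl1 fell and the change of Cx3cr1 did not pass.

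The upstream 250 bases of 4 members are shown because 3 of them, P2ry12, Siglech and Cx3cr1, fell in Mut3 and the other, Olfml3, did not and rose in GL261. They come from RefSeq (build GRCm38.p6), end just before the RefSeq start of the gene and read 5′ to 3′ along it. They lie at chr3:59262986-59263235 (minus strand), chr7:55767934-55768183 (plus), chr9:120068297-120068546 (minus) and chr3:103738002-103738251 (minus). Capitals mark GGAAGT on either strand (ACTTCC where it is on the other), part of the element GAGGAAGT bound by the myeloid factor PU.1.
P2ry12: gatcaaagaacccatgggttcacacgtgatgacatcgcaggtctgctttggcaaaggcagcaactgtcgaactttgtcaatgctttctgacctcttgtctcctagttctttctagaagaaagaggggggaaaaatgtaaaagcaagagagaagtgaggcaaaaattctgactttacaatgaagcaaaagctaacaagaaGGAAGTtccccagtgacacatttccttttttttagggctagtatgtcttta
Siglech: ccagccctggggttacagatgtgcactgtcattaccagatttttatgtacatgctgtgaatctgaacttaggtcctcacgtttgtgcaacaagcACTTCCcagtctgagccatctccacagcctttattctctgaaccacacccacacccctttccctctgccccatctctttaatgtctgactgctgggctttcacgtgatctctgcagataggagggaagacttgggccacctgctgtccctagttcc
Cx3cr1: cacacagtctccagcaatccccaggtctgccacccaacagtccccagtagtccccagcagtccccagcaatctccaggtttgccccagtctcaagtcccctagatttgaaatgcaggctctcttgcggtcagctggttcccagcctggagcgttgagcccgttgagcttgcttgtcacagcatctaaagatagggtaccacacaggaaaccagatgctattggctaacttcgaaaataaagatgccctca
Olfml3: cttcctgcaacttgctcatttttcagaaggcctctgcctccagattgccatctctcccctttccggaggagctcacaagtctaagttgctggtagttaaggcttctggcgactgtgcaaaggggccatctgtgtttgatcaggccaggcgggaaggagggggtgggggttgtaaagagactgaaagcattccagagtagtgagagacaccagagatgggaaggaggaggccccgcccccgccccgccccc
Promoter windows were matched for 7 of the 9 genes, 9 windows in all, and Tmem119 and Gpr34 had none. GGAAGT was present for 3 of the 7 genes (P2ry12, Siglech and 1 of the 3 windows of Sall1). That was 3 of the 9 windows, against 19.7% of all 32851 windows. The longer GAGGAAGT, which contains GGAAGT, was in 0 of the 9 windows and in 2.44% of all windows. These matches describe the letters of the windows only.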

How the data were processed

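Whole transcriptome libraries were made from 50 ng of RNA. Reads were aligned with STAR 2.4.2a to the GENCODE mouse genome, and the submitters' processing notes also name mm10, Salmon and DESeq2 1.18.1 without their roles. The deposited estimated counts per gene, which need not be whole, and the TPM values that the authors deposited beside them hold the same data scaled by gene length and library. Counts were rounded before testing. Ensembl identifiers were named from GENCODE M21 (46201 of 46679 matched). Counts were fitted with edgeR 4.0.16 (R 4.3.3; filterByExpr, TMM, quasi-likelihood) on all 15 samples with group as the only factor, and p-values were adjusted by the Benjamini-Hochberg method over 17481 genes. Alternatives used DESeq2 1.42.0, limma 3.58.1 on log2(TPM + 1) or log2(TPM + 0.1) with a minimum of 1 TPM in 3 samples, other filters and scalings, and libraries left out. Member calls for a pair of groups were followed with 1 library at a time left out of those 2 groups only. Log2 CPM for correlations carried a prior count of 2. The genes named were the 9 members, genes of the fixed lists and the 10 genes most like the members. Some genes and alleles are not reported here. The members and lists were chosen with earlier results of these data known. Read totals limit precision to counting error only. The p-values rest on the spread between mice within a group, with 3 mice per group. That spread was pooled over all 5 groups, except where only the 2 groups compared were fitted.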

Additional observations from a re-analysis of the deposited data

Results flagged for a closer look

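These differences between tumor lines in the same contrast passed the edgeR test of the difference itself, given as log2 fold changes of the first line over the second. Over Mut3, GL261 had P2ry12 at 2.45, P2ry13 at 2.62, Gpr34 at 1.95, Cx3cr1 at 2.83, Siglech at 2.76, Tmem119 at 2.49, Olfml3 at 1.66 and Sall1 at -1.33. Over Mut3, 005 had P2ry12 at 2.27, P2ry13 at 2.53, Gpr34 at 1.56, Cx3cr1 at 2.48, Siglech at 2.37 and Tmem119 at 1.91. Over Mut3, CT2A had P2ry13 at 1.36, Cx3cr1 at 1.91, Tmem119 at 2.37 and Sall1 at -1.59. Of these, P2ry12, Siglech, Gpr34 and Tmem119 between 005 and Mut3 were lost without 005 replicate 3, and Gpr34 and Sall1 between GL261 and Mut3 without GL261 replicate 2. Between CT2A and Mut3, P2ry13 and Sall1 were lost without any 1 of the libraries compared other than Mut3 replicate 2, and Tmem119 without CT2A replicate 3 or Mut3 replicate 3. Other omissions that lost Gpr34, Sall1, P2ry12, Siglech or Tmem119 were of Mut3 libraries or of GL261 replicate 1. No outlier test on single values was run in groups of 3.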

How the results depend on the processing

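The fall of P2ry12, P2ry13, Cx3cr1, Siglech, Gpr34 and Slc2a5 in Mut3 and of P2ry12 in CT2A was called under every alternative in which the gene was tested. With at least 10 counts in every sample, which leaves out P2ry13, Tmem119 and Slc2a5, 4 members were called lower in Mut3 (20.5% of all genes). Under that filter 2 were called between CT2A and Mut3 (13.7%) and 1 between CT2A and GL261 (9.62%). DESeq2 called 2 members between CT2A and GL261 (11.1%) and 1 between CT2A and 005 (10.1%). With only the 2 groups compared, 2 were called between CT2A and GL261 (15.8%) and 2 between 005 and Mut3 (5.88%).

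On TPM, the median of all genes over naive brain moved to -0.40 for Mut3, -0.35 for 005, -0.53 for GL261 and -0.57 for CT2A with a pseudocount of 1, and to -0.55, -0.48, -0.74 and -0.81 with 0.1. limma on log2(TPM + 1) called 1 member lower in GL261, 1 in 005, 0 between CT2A and Mut3, 2 between GL261 and Mut3, 1 between 005 and Mut3 and 5 among the 5 groups, and on log2(TPM + 0.1) called 1, 1, 1, 5 and 1 in those comparisons (P2ry13, Sall1 and Slc2a5 were not tested on TPM). The member lower in GL261 and in 005 was P2ry12 on both scales, where 26.6% and 16.8% of all genes were lower with a pseudocount of 1 and 31.9% and 16.7% with 0.1. Of all genes, 8.54% were called between CT2A and Mut3, 8.78% between GL261 and Mut3 and 7.96% between 005 and Mut3 with 1. With 0.1 these shares were 10.5%, 11.5% and 10.9%. Under these scales Tmem119 stood at -0.38 and -0.41 in CT2A and at -0.20 and -0.12 in GL261, Olfml3 at -0.20 and -0.32 in CT2A and at -0.42 and -0.67 in Mut3, and Cx3cr1 at -0.24 and -0.34 in GL261 and at -0.32 and -0.52 in 005. By library size Tmem119 stood at -0.17 in CT2A. The causes were not tested.

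Leaving out 1 library of the groups compared at a time, the members called lower ranged from 1 to 4 in CT2A, 0 to 0 in GL261, 0 to 3 in 005 and 6 to 7 in Mut3. Libraries of other groups also enter the shared spread, and their omission is not part of these ranges. Without 005 replicate 3, 14.9% of all genes were lower in GL261 than in naive brain, against 7.77% with it. Between tumor types the range was 1 to 4 for CT2A and Mut3, 6 to 9 for GL261 and Mut3, 2 to 6 for 005 and Mut3 and 0 to 0 for the other 3 pairs, and 6 to 9 differed among the 5 groups. Between tumor types, some estimates that were not called crossed 0 over all the alternatives. Examples were Siglech between CT2A and 005 (-0.93 to 0.54) and P2ry12 between GL261 and 005 (-0.25 to 1.07). Over naive brain, Tmem119 changed sign in CT2A without naive replicate 1 (-0.29) or CT2A replicate 3 (-0.07). It also did in GL261 without naive replicate 1 (-0.17). In 005, Tmem119 (0.71) and Sall1 (0.20) changed sign without naive replicate 2, and Cx3cr1 without 005 replicate 3 (-0.24). Olfml3 in Mut3 changed sign without Mut3 replicate 2 (-0.19). Over the same omissions these estimates reached 1.28 for Tmem119 in CT2A and 1.35 in GL261 (without naive replicate 2), -0.75 for Tmem119 in 005 (without naive replicate 1), 0.41 for Cx3cr1 in 005 (without 005 replicate 2) and 0.40 for Olfml3 in Mut3 (without naive replicate 3). The log2 ratio to the myeloid genes ranged from -2.41 to -1.70 for Mut3, -3.81 to -2.46 for 005, -2.88 to -2.42 for GL261 and -2.69 to -2.52 for CT2A. Over Ptprc, Spi1 and Itgam alone it was -1.29 in Mut3.

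Naive replicate 2 and 005 replicate 3 were also left out together, a choice made after seeing the data. Then 1 member was called lower in GL261 (8.81% of all genes) and 3 in 005 (13.9%). Between tumor types 1 was called for CT2A and GL261 (13.3%) and 3 for 005 and Mut3 (17.6%). In 005 Tmem119 then stood at 0.44, Sall1 at 0.13 and Cx3cr1 at -0.20. Same-numbered samples did not deviate together (1 of 30 pairs had r over 0.1). A replicate block left 7 members lower in Mut3 (18.7% of all genes) and 3 in CT2A (18.4%), Slc2a5 being lost. It left 0 lower in GL261 (5.54%) and 0 in 005 (0.841%). Under the block 7 were called between GL261 and Mut3 (14.2%), 4 between 005 and Mut3 (14.6%) and 3 between CT2A and Mut3 (10.4%). The calls lost were Sall1 in the first pair, Tmem119 and Gpr34 in the second and P2ry13 in the third. In the other 3 pairs 0 were called, and 8 members differed among the groups. Naive depth limits P2ry13, Tmem119 and Slc2a5, with at most 50.7 reads in a naive library.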
